A study of Mus musculus with 15 samples.

Results

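The Id proteins (inhibitors of DNA binding) and the E proteins are helix-loop-helix factors that hold each other in check. The 6 genes described here are Id1, Id2 and Id3, which encode Id proteins, and Tcf3 (whose product is E2A), Tcf4 (E2-2) and Tcf12 (HEB), which encode E proteins. They were chosen by gene symbol from the 55421 genes counted in CD4+ T cells that had expanded in lymphocyte-deficient mice, and all 6 were found. They came into view because Id3 differed between KO and WT T cells in these data, so the differences between the genotypes are given for the 6 genes as a description without p-values. The differences between the organs were not used to choose them and were tested.

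mRNA-seq was made from 15 samples of T cells. The donor mice were C57BL/6 and carried floxed alleles of Prkaa1 (PRKAA1fl/fl), the gene of the AMPKα1 catalytic subunit, in all groups. KO donors also carried CD4-Cre, which is active from the CD4+CD8+ stage in the thymus, so that the T cells had lost the gene before transfer, whereas their WT littermates carried the same floxed alleles without Cre. Naive CD4+CD25-CD44-CD62L+ T cells were transferred into Rag2-/- recipients, which have no T or B cells of their own but keep innate lymphocytes and myeloid cells, and which develop colitis under transferred WT T cells. Donors and recipients were young adult mice. T cells were recovered 6 weeks later from spleen and mesenteric lymph nodes (mLN), which gave 4 WT and 4 KO samples from spleen, 3 WT and 4 KO samples from mLN. Another WT mLN sample was left out by the study for its quality and is not analysed here. All samples come from a single experiment.

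E proteins bind as dimers to a short DNA motif, the E box, and turn on many genes of the lymphocyte programme. An Id protein has the dimerization domain but lacks the basic region that touches DNA, so an E protein paired with it is kept off its sites, and the balance of both families sets E protein activity. In T cells, Id2 is known for effector cells and Id3 for naive, memory, follicular helper and regulatory T cells, and both are induced or repressed by receptor and cytokine signals.

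Prkaa1 checked the labels. On the CPM scale (counts per 1000000 reads on genes), WT spleen had 51.1 ± 3.71 (SD, n = 4) and KO spleen had 20.1 ± 1.38 (SD, n = 4). WT mLN samples had 53.3 ± 6.57 CPM (SD, n = 3) and KO mLN samples had 27.7 ± 5.37 CPM (SD, n = 4). Within KO T cells it was higher in mLN than in spleen (log2 fold change 0.46, SE 0.14, adjusted p = 0.0361, edgeR). The deposited count is 1 value for the whole gene, and reads inside and outside the deleted stretch were not separated. Each sample had 9363940 to 11283439 reads on genes. The 8 markers of CD4+ T cells were above the floor of 3 counts in every sample and summed to between 6590 and 7880 CPM. Markers of other cells that sorted T cells can carry along summed to 111 to 240 CPM for plasmacytoid dendritic cells, 17.0 to 33.1 for other dendritic cells, 40.1 to 362 for macrophages and monocytes, 16.4 to 443 for neutrophils, 65.2 to 133 for endothelium, 6.62 to 22.3 for stroma and smooth muscle and 13.8 to 1488 for erythroid cells. Clec9a of dendritic cells and Kdr, Tek and Emcn of endothelium never passed the floor. The endothelium sum was mostly Pecam1, with 716 to 1341 counts, while Cdh5 reached at most 26 counts and Vwf at most 9. Lists whose sums separated groups are given beside the results. In such bulk samples fewer cells of a type and less RNA per cell cannot be told apart.

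The members lie on 6 chromosomes, in GRCm38 coordinates. Id2 (ENSMUSG00000020644) lies at chr12:25093799-25097140 on the minus strand, Id3 (ENSMUSG00000007872) at chr4:136143497-136145755 on the plus strand and Id1 (ENSMUSG00000042745) at chr2:152736251-152737410 on the plus strand. Tcf3 (ENSMUSG00000020167) lies at chr10:80409514-80433647 on the minus strand and Tcf12 (ENSMUSG00000032228) at chr9:71842688-72111871 on the minus strand. The position of Tcf4 is given with its values. No exon of a member overlaps an exon of another gene, so reads on exons of the members are not shared with a neighbour on either strand.

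The sequences just upstream of Id2 and Tcf3, the 2 members whose levels separated spleen from mLN in KO T cells without overlap, are shown because both hold an E box, the motif the E proteins themselves bind. They are the bases outside annotated exons in the RefSeq promoter window (GRCm38.p6), which runs from 250 bases before the start of transcription to 50 after it. The E box is in capitals.
Id2, chr12:25096254-25096342, minus strand, in an intron of a longer annotated transcript: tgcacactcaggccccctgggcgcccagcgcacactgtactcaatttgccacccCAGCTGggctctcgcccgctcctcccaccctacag
Tcf3, chr10:80433648-80433885, minus strand, upstream of the gene: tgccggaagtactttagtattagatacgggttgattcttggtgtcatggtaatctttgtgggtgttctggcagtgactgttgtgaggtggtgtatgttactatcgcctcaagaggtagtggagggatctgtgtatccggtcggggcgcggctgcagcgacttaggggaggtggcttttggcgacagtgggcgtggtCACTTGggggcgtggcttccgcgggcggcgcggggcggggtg
The E box begins 196 bases before the start at Id2 (CAGCTG) and 54 before it at Tcf3 (CACTTG). An E box, CANNTG on either strand, is common: 72.3% of the 32851 RefSeq promoter windows of this length hold at least 1, and 16.3% hold CAGCTG. The Id3 window, chr4:136143572-136143871, holds 0 E boxes and lies wholly in an annotated exon. The 3 windows of Tcf12 hold 1, 2 and 1. These matches describe letters only, and binding was not measured.

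Id2 was by far the most abundant of the 6 transcripts. In WT spleen its level was 2821, 2288, 3011 and 2203 CPM in replicates 1 to 4, whereas KO spleen had 1830, 1973, 2095 and 2181 CPM. In WT mLN it was 2392, 2044 and 2130 CPM in replicates 1, 2 and 4, and in KO mLN 1615, 1669, 1453 and 1353 CPM. No KO sample reached the lowest WT sample from the same organ, by a narrow margin in spleen and a wide one in mLN, and the 4 KO mLN samples were the lowest of all 15. The separation in spleen depended on the scale. After TMM scaling over the 15 samples, KO spleen replicate 4 had 2222 CPM, above WT spleen replicates 2 (2208) and 4 (2135).

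Between the organs, Id2 fell in KO T cells and was not called in WT T cells. KO spleen had a mean of 2020 ± 153 CPM (SD, n = 4), and KO mLN had 1523 ± 146 CPM (SD, n = 4), 1.33-fold less, with groups that did not overlap (log2 fold change -0.41, SE 0.09, adjusted p = 0.00586, edgeR's quasi-likelihood test). In WT T cells it was 2581 ± 396 CPM (SD, n = 4) in spleen and 2189 ± 181 (SD, n = 3) in mLN, with overlapping groups (log2 fold change -0.20, SE 0.14, adjusted p = 0.334 by the same edgeR test). With the replicate number as a block, which pairs the WT samples, the WT value was -0.10 (adjusted p = 0.275, edgeR). The organ effect itself was not shown to differ between the genotypes, since the interaction was -0.20 with an SE of 0.17 (adjusted p = 0.9998, edgeR).

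Id3 ran the other way at a far lower level. WT spleen had 16.0, 16.9, 15.1 and 30.3 CPM and KO spleen 55.5, 61.7, 34.5 and 47.4 CPM. In mLN it was 28.7, 47.96 and 32.8 CPM in WT and 55.9, 89.97, 92.7 and 106 CPM in KO T cells. Every KO sample was above every WT sample of the same organ, and WT spleen replicate 4, well above the other WT spleen samples, was still below all KO samples.

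Id3 rose from spleen to mLN in both genotypes. In WT T cells the mean went from 19.6 ± 7.18 CPM (SD, n = 4) to 36.5 ± 10.2 (SD, n = 3), 1.91-fold higher in mLN (log2 fold change 0.94, SE 0.26, adjusted p = 0.0321, edgeR). This call rested on few samples: it was lost in 5 of the 7 fits that left out 1 sample, with adjusted p-values up to 0.118 without WT mLN replicate 2, where the log2 fold change was 0.70. In KO T cells the mean went from 49.8 ± 11.7 CPM (SD, n = 4) to 86.2 ± 21.4 (SD, n = 4), 1.73-fold higher (log2 fold change 0.79, SE 0.19, adjusted p = 0.0116, edgeR), and the call held in all 8 such fits. The ranges of the organs overlapped in both genotypes, through WT spleen replicate 4 in WT and KO mLN replicate 1 in KO T cells. With the replicate number as a block and all samples kept, the WT log2 fold change was 0.86 (adjusted p = 0.0169, edgeR). The interaction for Id3 was -0.13 with an SE of 0.34 (adjusted p = 0.9998, edgeR), so a difference between the genotypes in the organ effect was not detected.

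Markers of several other cell types also separated the organs. Cd8a and Cd8b1 of CD8 T cells summed to 2.56 to 5.11 CPM in WT spleen against 7.18 to 11.6 in WT mLN, and to 1.61 to 4.34 CPM in KO spleen against 18.9 to 28.2 in KO mLN. Taken singly, both genes overlapped between the organs in WT T cells. In KO T cells Cd8a had 2 to 18 counts in spleen and 167 to 258 in mLN, whereas Cd8b1 overlapped (15 to 31 and 16 to 76). Neutrophil markers were lower in mLN, with 88.1 to 443 CPM in WT spleen against 44.0 to 60.8 in WT mLN and 75.7 to 278 in KO spleen against 16.4 to 37.1 in KO mLN. Plasmacytoid dendritic cell markers were higher there, with 111 to 131 CPM against 143 to 191 in WT and 115 to 135.5 against 135.9 to 240 in KO T cells. Most of that sum was Ccr9, Bst2 and Irf8. Ccr9 went from 140 to 374 counts to 619 to 980 in WT, and from 74 to 131 to 344 to 1128 in KO T cells. Irf8 leaned the other way, with 266 to 770 counts in WT spleen and 177 to 381 in WT mLN. Siglech had 0 to 7 and 1 to 16 counts there. In KO T cells alone, macrophage and monocyte markers had 119 to 362 CPM in spleen against 71.8 to 83.8 in mLN, stroma and smooth muscle markers 8.09 to 11.1 against 13.3 to 22.3, and the CD4+ T cell markers themselves 7209 to 7538 against 7628 to 7880. Of the stroma and smooth muscle markers, only Acta2 (15 to 31 and 37 to 84 counts) and Myh11 (7 to 24 and 32 to 95) separated KO spleen from KO mLN. The part of all these cell types in the organ differences of Id2, Id3 and Tcf3 was not tested.

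Id1, the third Id gene, was close to absent. It had 5, 13, 3 and 8 counts in the WT spleen samples, 4, 6, 8 and 9 in KO spleen, 7, 8 and 3 in WT mLN and 0, 0, 9 and 0 in KO mLN. It failed the filter on low counts in every comparison, and no difference was detectable at this depth. A count of 0 allows up to 3 counts, for counting error only.

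**Figure D1:**
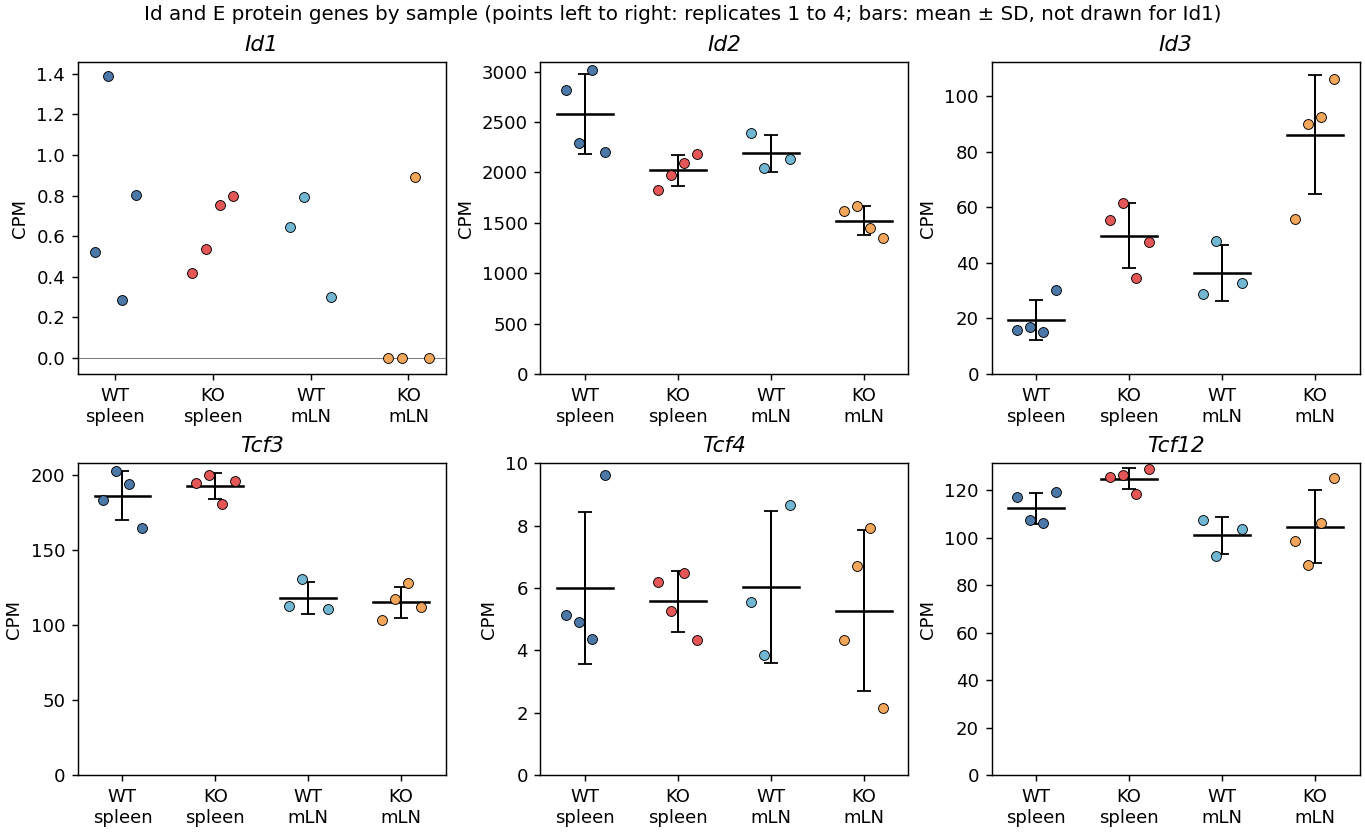
Level of each Id and E protein gene in CPM (y axis, with its own scale in each panel) in the 15 samples, by group (x axis); points are samples and bars are the mean ± SD, left out for Id1. Id2 was highest in WT spleen and lowest in KO mLN (means of 2581 and 1523 CPM), Id3 the reverse (19.6 and 86.2 CPM), and the spleen and mLN samples of Tcf3 did not overlap.

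Among the E proteins, Tcf3 separated the organs and not the genotypes. Its product E2A is the E protein with the broadest role in lymphocytes. WT spleen had 183, 203, 194 and 165 CPM and KO spleen 195, 200, 180.4 and 196 CPM. In mLN it was 113, 130.4 and 111 CPM in WT and 103, 118, 128 and 112 CPM in KO T cells. No mLN sample reached the level of any spleen sample, whereas WT and KO samples were interleaved within each organ.

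Tcf3 fell 1.54-fold in WT T cells, from 186 ± 16.4 CPM (SD, n = 4) in spleen to 118 ± 10.9 (SD, n = 3) in mLN (log2 fold change -0.62, SE 0.10, adjusted p = 0.0031, edgeR). In KO T cells it fell 1.67-fold, from 193 ± 8.49 CPM to 115 ± 10.4 (SD, n = 4 each; log2 fold change -0.74, SE 0.07, adjusted p = 4.0e-05, edgeR). Both calls held with each sample left out in turn, and the interaction was -0.11 with an SE of 0.12 (adjusted p = 0.9998, edgeR).

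Tcf12 differed little. Its product HEB is the usual partner of E2A in T cells and thymocytes. WT spleen had 117, 107, 106 and 119 CPM and KO spleen 126, 126, 119 and 129 CPM. In mLN it was 107, 92.3 and 104 CPM in WT and 98.6, 88.5, 106 and 125 CPM in KO T cells. All groups overlapped their counterpart. Between the organs its log2 fold change was -0.11 (SE 0.09, adjusted p = 0.405, edgeR) in WT T cells and -0.25 (SE 0.10, adjusted p = 0.0767, edgeR) in KO T cells. The second value depended on 1 sample, since without KO mLN replicate 4 it was -0.34 (adjusted p = 0.0133, edgeR).

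Tcf4 (ENSMUSG00000053477, chr18:69343356-69689079, plus strand), known best as the master factor of plasmacytoid dendritic cells, was read at 24 to 96 counts per sample. Its level ranged from 4.36 to 9.63 CPM in WT spleen, from 4.34 to 6.49 in KO spleen, from 3.86 to 8.67 in WT mLN and from 2.14 to 7.93 in KO mLN. The spread within groups was as wide as anything between them, and the log2 fold change between the organs was 0.05 (SE 0.36) in WT and -0.08 (SE 0.35) in KO T cells (adjusted p = 0.941 and 0.892, edgeR). Siglech, which marks plasmacytoid dendritic cells, had 0 to 7 counts in WT spleen, 1 to 17 in KO spleen, 1 to 16 in WT mLN and 21 to 89 in KO mLN. The part of these cells in the level of Tcf4 was not tested.

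Over the family, 5 of the 6 genes passed the filter in each comparison, all but Id1. Between mLN and spleen, 2 of the 5 were called in WT T cells (Id3 higher, Tcf3 lower), beside 20.5% of the 14515 genes tested (9.7% higher and 10.8% lower). In KO T cells it was 3 of the 5 (Id3 higher, Tcf3 and Id2 lower), beside 25.3% of 14240 genes (11.4% higher and 13.9% lower). None of these calls exceeded a log2 fold change of 1, which 4.98% of genes in WT and 5.36% in KO T cells did while called. Groups that did not overlap, as for Tcf3 in both genotypes and Id2 in KO T cells, were found for 31.5% and 28.7% of genes. With so many genes called and so few members, these counts do not set the family apart. The organ comparisons share no sample with each other. In the genotype by organ interaction 0 of the 5 members were called by edgeR or DESeq2, and 0 had an unadjusted p under 0.05. Over all 15438 genes the interaction called 0 (0%) with edgeR, beside 652 at an unadjusted p under 0.05, and 4 with DESeq2.

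As a description, KO against WT gave a log2 fold change of 1.36 (SE 0.23) for Id3 in spleen and 1.23 (SE 0.22) in mLN, or 2.57-fold and 2.35-fold higher levels. For Id2 it gave -0.34 (SE 0.12) in spleen and -0.53 (SE 0.09) in mLN, or 1.27-fold and 1.45-fold lower levels. The E proteins stayed near 0, with Tcf3 at 0.06 (SE 0.08) and -0.04 (SE 0.10), Tcf12 at 0.17 (SE 0.06) and 0.04 (SE 0.12) and Tcf4 at -0.09 (SE 0.26) and -0.21 (SE 0.44) in spleen and mLN. In spleen 1 member (Id3, higher) passed the limit used for calls, an adjusted p under 0.05, beside 1.3% of 14254 genes (0.547% higher and 0.751% lower), and in mLN 2 members (Id3 higher, Id2 lower) beside 0.641% of 14359 genes (0.348% higher and 0.292% lower). With a log2 fold change above 1 as well, it was Id3 alone in each organ, beside 0.449% and 0.327% of genes. On the CPM scale groups did not overlap for Id2 and Id3 in either organ, and 12% of genes in spleen and 14.4% in mLN had such groups. After TMM scaling the Id2 groups in spleen overlapped. The calls were not stable: leaving out 1 sample lost Id3 in spleen in 5 of 8 fits and Id3 and Id2 in mLN in 6 of 7 fits each, and the replicate block lost all 3. This contrast brought the genes into view, so nothing is read from these counts.

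Markers of other cells moved with the genotype as well. Those of innate lymphocytes were higher in KO samples of both organs. The 5 markers, all above the floor in every sample, summed to 72.6 to 92.8 CPM in WT and 119 to 127 in KO spleen, and to 51.2 to 73.4 CPM in WT and 98.4 to 137 in KO mLN. Most of that sum was Eomes, with 372 to 712 counts in WT spleen and 760 to 1143 in KO spleen, a gene that T cells can express as well. Ncr1, which marks natural killer cells, had 12 to 33 counts in WT spleen and 21 to 96 in KO spleen, and 5 to 14 in WT mLN and 8 to 38 in KO mLN. Klrb1c, another natural killer cell marker of the list, went the other way, with 27 to 96 counts in WT and 14 to 48 in KO spleen, and 57 to 117 in WT and 18 to 56 in KO mLN. Kit had 112 to 158 counts in WT and 74 to 164 in KO spleen, and 50 to 106 in WT and 41 to 108 in KO mLN. Tyrobp had 70 to 164 counts in WT and 108 to 217 in KO spleen, and 30 to 77 in WT and 57 to 184 in KO mLN.

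In mLN, other lists separated the genotypes too. Neutrophil markers summed to 44.0 to 60.8 CPM in WT and 16.4 to 37.1 in KO mLN, and CD8 T cell markers to 7.18 to 11.6 and 18.9 to 28.2 CPM. Of the CD8 T cell markers, Cd8a had 3 to 86 counts in WT and 167 to 258 in KO mLN. Cd8b1 overlapped, with 31 to 69 and 16 to 76 counts. Stroma and smooth muscle markers reached 13.3 to 22.3 CPM in KO mLN against 6.62 to 9.47 in WT mLN. Of that list, only Acta2 and Myh11 separated WT from KO mLN, with 7 to 9 and 37 to 84 counts and with 0 to 4 and 32 to 95. The rest overlapped, such as Tagln with 37 to 66 and 40 to 69 counts. Pdgfrb leaned lower in KO mLN (0 to 16 and 0 to 3), as did Col3a1 (0 to 4 and 0 to 1). Pax5, a B cell factor, had 0 to 2 counts in WT and 18 to 48 in KO mLN. In spleen the macrophage and monocyte sums overlapped, but 3 of their genes did not, with 129 to 245 counts in WT and 283 to 587 in KO spleen for Csf1r, 10 to 29 and 38 to 183 for C1qa, and 26 to 76 and 134 to 435 for C1qb. The rest of that list overlapped. Lyz2 had 833 to 1647 and 807 to 2386 counts, Cd14 5 to 16 and 8 to 41, and Adgre1 21 to 46 and 45 to 198. Itgam leaned lower in KO spleen, with 9 to 37 and 5 to 21 counts. The part of these cells in the levels of Id2 and Id3 was not tested.

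**Figure D2:**
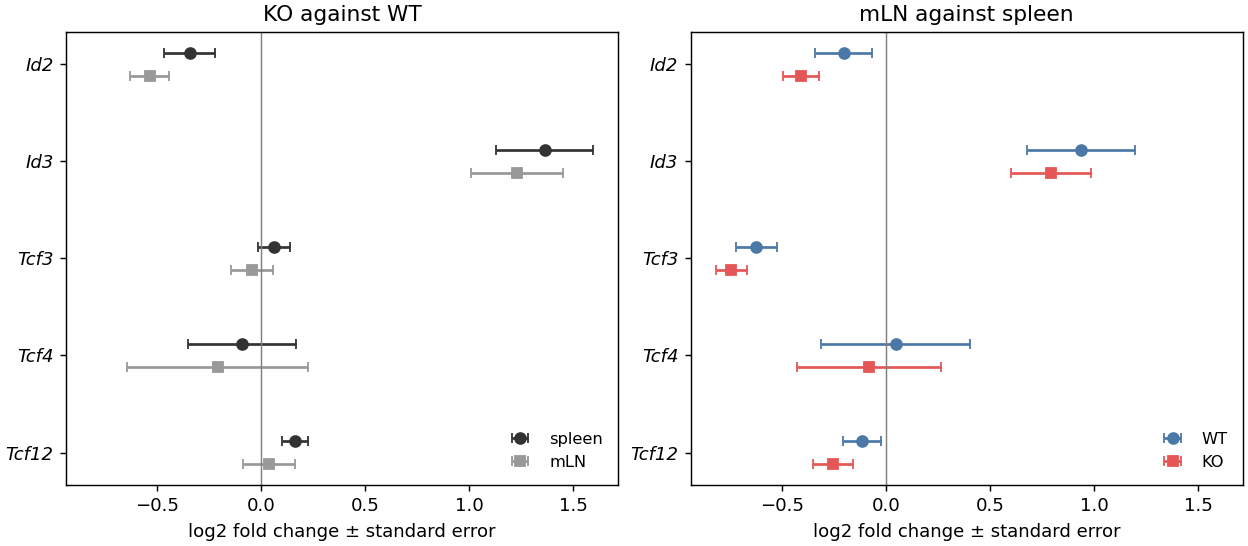
Log2 fold change ± standard error (x axis) of the 5 members that were tested, for KO against WT in each organ (left) and for mLN against spleen in each genotype (right). Id3 lies to the right of 0 in all 4 comparisons (0.79 to 1.36) and Id2 to the left (-0.53 to -0.20), while Tcf3 lies away from 0 between the organs alone (-0.62 and -0.74).

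Per kilobase of exon, the scale on which levels can be set between genes, the order was Id2, Tcf3, Id3 and Tcf12 in WT spleen, with 1059, 46.1, 10.9 and 7.25 CPM per kb. KO spleen and WT mLN had the same order, with Tcf3 at 47.7 and 29.2, Id3 at 27.8 and 20.4 and Tcf12 at 8.04 and 6.51 CPM per kb. In KO mLN, Id3 stood above Tcf3, at 48.1 ± 11.9 against 28.5 ± 2.59 CPM per kb (SD, n = 4). Id1 and Tcf4 were last and under 1 CPM per kb in all 4 groups, and their order is not given since their spreads overlapped. Id3 and Tcf12 were neighbours in WT spleen whose order turned with the length used: per kilobase of the longest transcript, Tcf12 had 17.9 and Id3 15.3 CPM per kb there.

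The Id transcripts were a mix of almost pure Id2, and Id3 took a larger share of it in KO mLN. On the scale of CPM per kb of exon, Id3 made up 0.766, 0.992, 0.677 and 1.84% of the summed Id level in WT spleen, against 3.97, 4.08, 2.19 and 2.87% in KO spleen. In mLN it made up 1.60, 3.09 and 2.05% in WT and 4.50, 6.84, 7.98 and 9.65% in KO T cells. The ratio of Id2 to Id3 was 107 ± 40.8 (SD, n = 4) in WT spleen and 13.9 ± 5.15 (SD, n = 4) in KO mLN, and the other two groups lay in between, KO spleen at 31.5 ± 9.88 (SD, n = 4) and WT mLN at 46.8 ± 15.02 (SD, n = 3).

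The ratio of summed Id to summed E protein transcripts, on the same scale, was 19.99 ± 2.80 in WT spleen, 15.3 ± 1.34 in KO spleen, 25.7 ± 2.98 in WT mLN and 19.1 ± 2.55 in KO mLN (SD, n = 4, with n = 3 in WT mLN). Since Id2 makes up most of the Id level and Tcf3 of the E protein level (80.4 to 86.0% by group), this ratio is close to that of Id2 to Tcf3. It ranged from 16.6 to 22.6 in WT and from 13.8 to 16.7 in KO spleen, which overlapped through WT spleen replicate 2, and from 22.6 to 28.5 in WT and from 16.7 to 21.6 in KO mLN, which did not. These are ratios of transcripts, and protein was not measured here.

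Across the 15 samples Id2 and Id3 were opposed. Pearson's r of their log2 CPM was -0.91 (Spearman's rho -0.90), and with the group means removed it was -0.69 (rho -0.68). The samples fall into 4 groups that differ in both genes and share a depth scale, and the values are given as a description without a p-value. Id3 and Tcf3 had an r of -0.51 over the samples and 0.02 with the group means removed, and Id2 and Tcf3 had 0.51 and 0.11.

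**Figure D3:**
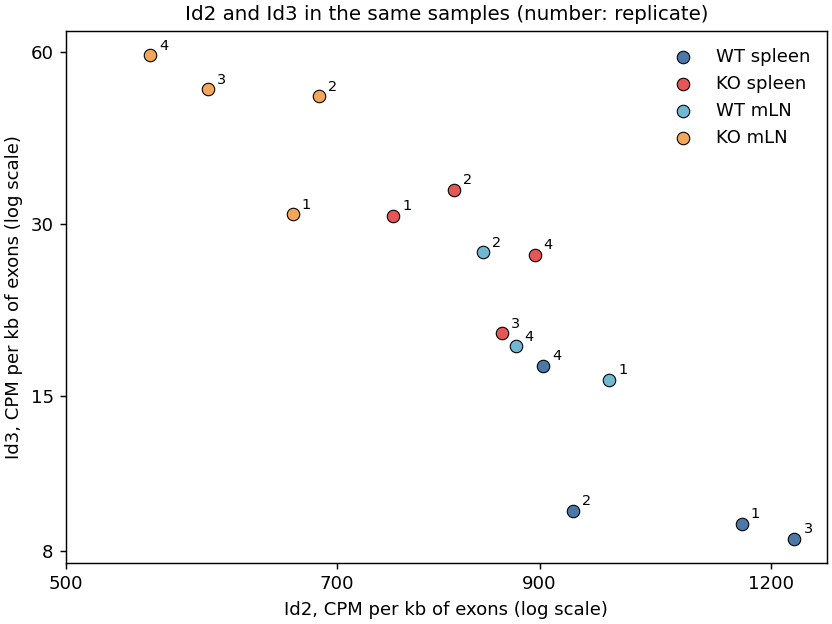
Level of Id3 against Id2 in CPM per kb of exon, both on log axes, with 1 point per sample labelled by its replicate number and coloured by group. The points run from WT spleen at the lower right to KO mLN at the upper left, and WT spleen replicate 4 lies apart from the other WT spleen samples toward the WT mLN samples (r = -0.91 over the 15 samples).

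The other genes of the pathway were followed in 3 lists. The first held 16 partners and cofactors that bind E or Id proteins, such as the class II factors and the ETO family. Of these, 8 were tested in spleen and 6 in mLN for KO against WT, and 0 were called in either. Between the organs 8 were tested in each genotype. In WT T cells 0 rose and 4 fell (median log2 fold change -1.07), beside 10.8% of all genes called lower. In KO T cells 0 rose and 3 fell (median -0.44), beside 13.9%. The medians over all genes tested were 0.00 and 0.01. Lyl1, Lmo2 and Tal1 failed the filter in the comparison within mLN. Where tested between the organs, they entered through their spleen level and could hardly be called higher. Nothing is therefore read from these counts and medians. Lyl1, a class II factor of blood progenitors, fell from 2.41 ± 0.522 CPM in WT spleen to 0.575 ± 0.267 in WT mLN. In KO T cells it went from 2.56 ± 0.240 CPM in spleen to 0.909 ± 0.376 in mLN. It was called in both genotypes, at mLN levels near the filter, so no fold is given.

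Cbfa2t3, the ETO family corepressor ETO2, fell in WT T cells from 3.28 ± 0.479 to 1.03 ± 0.352 CPM (log2 fold change -1.61, SE 0.34, adjusted p = 0.0105, edgeR). Lmo2, which bridges such factors, went from 3.53 ± 1.71 to 0.455 ± 0.504 CPM in WT and from 2.602 ± 0.809 to 0.457 ± 0.512 CPM in KO T cells, and Tal1, the class II factor it works with, from 4.97 ± 3.21 to 0.233 ± 0.403 CPM in WT T cells. Both were called, at mLN levels of a few reads, so no fold is given. Ldb1, their scaffold, fell in KO T cells from 49.3 ± 2.75 to 37.2 ± 5.57 CPM (log2 fold change -0.41, SE 0.11, adjusted p = 0.0213, edgeR). In WT T cells it was not called (log2 fold change -0.11, SE 0.11, adjusted p = 0.535, edgeR). Lyl1, Lmo2 and Tal1 are genes of the erythroid and myeloid programme, and the erythroid markers summed to 73.9 to 1488 CPM in WT spleen and 17.4 to 624 in WT mLN, and to 32.4 to 80.7 CPM in KO spleen and 13.8 to 55.3 in KO mLN. Their part was not tested.

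The second list held 16 regulators upstream of the Id genes, the BMP and TGF-β receptors and SMADs, EGR and STAT factors and Prdm1, and all 16 were tested in every comparison. For KO against WT 0 were called in either organ. Between the organs 2 fell in WT T cells and 5 in KO T cells, and 0 rose in either (median log2 fold change -0.09 and -0.28), beside 10.8% and 13.9% of all genes called lower. The 2 of 16 in WT T cells are near that share. Smad3, which carries the TGF-β signal, fell from 115 ± 12.9 to 72.3 ± 7.84 CPM in WT and from 129 ± 4.17 to 92.1 ± 12.3 CPM in KO T cells (adjusted p = 0.0075 and 0.0029, edgeR). Its receptor subunit Tgfbr2 fell from 427 ± 28.9 to 324 ± 9.20 CPM and from 398 ± 21.3 to 283 ± 11.1 CPM (adjusted p = 0.0154 and 0.00017, edgeR).

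Egr1, an early response gene of receptor signalling known to induce Id3, fell in KO T cells from 101 ± 6.07 CPM in spleen to 47.5 ± 6.96 in mLN (log2 fold change -1.08, SE 0.10, adjusted p = 3.0e-05, edgeR). In WT T cells it had 91.6 ± 24.3 CPM in spleen and 61.6 ± 16.8 in mLN (log2 fold change -0.54, SE 0.24, adjusted p = 0.151, edgeR). Its relative Egr3 went from 18.5 ± 2.26 to 10.2 ± 4.07 CPM in KO T cells (log2 fold change -0.86, SE 0.25, adjusted p = 0.0290, edgeR). Stat5b, a transducer of IL-2 family cytokines, went from 180 ± 5.34 to 150 ± 9.62 CPM in KO T cells (log2 fold change -0.26, SE 0.07, adjusted p = 0.0127, edgeR). In WT T cells the values were -0.11 (SE 0.31) for Egr3 and -0.24 (SE 0.12) for Stat5b, not called (adjusted p = 0.835 and 0.174, edgeR).

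The third list held 18 genes that E proteins are known to drive or restrain, of which 13 or 14 were tested. For KO against WT, 1 gene was called in spleen (lower) and 2 were called in mLN (1 in each direction), beside 1.3% and 0.641% of all genes. The list was chosen with earlier results of these data known, so nothing is read from these counts. Between the organs, 1 was called in WT T cells, a smaller share than the 20.5% over all genes, and 5 in KO T cells, beside 25.3%. Of these 5, Notch3 entered through its spleen level and could hardly be called higher. For KO against WT, Il7r, the receptor chain for IL-7, was called lower in both organs, from 803 ± 320 to 284 ± 48.8 CPM in spleen and from 1323 ± 176 to 439 ± 89.0 CPM in mLN (log2 fold change -1.48, SE 0.26, and -1.60, SE 0.15). Cxcr5, the chemokine receptor of follicular helper T cells, was called higher in mLN alone, from 30.5 ± 6.75 to 89.7 ± 24.8 CPM (log2 fold change 1.55, SE 0.22). In spleen it had 27.1 ± 10.05 CPM in WT and 61.6 ± 31.5 in KO T cells (log2 fold change 1.19, SE 0.36) and was not called. In the interaction 0 genes of the 3 lists were called, so a difference between the organs was not shown.

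Between the organs, Notch1, the receptor that acts with E proteins in early T cells, fell in WT T cells from 188 ± 35.4 to 85.2 ± 6.79 CPM and in KO T cells from 210 ± 25.5 to 107 ± 10.8 CPM (log2 fold change -1.11 and -0.97, adjusted p = 0.0016 and 7.1e-05, edgeR). It was the only gene of the list called in WT T cells. In KO T cells Notch3 was also called lower, at 1.15 ± 0.118 CPM in spleen and 0.180 ± 0.164 in mLN. It failed the filter within mLN, so it entered through its spleen level and could hardly be called higher. No fold is given for it. Socs1, a brake on cytokine signalling, Tcf7, the factor of naive and memory T cells, and Il7r rose in KO T cells, with log2 fold changes of 0.60 (SE 0.07), 0.39 (SE 0.09) and 0.63 (SE 0.15) and adjusted p = 0.00017, 0.0093 and 0.0104 (edgeR). In WT T cells they were 0.17 (SE 0.16), 0.35 (SE 0.11) and 0.77 (SE 0.28) in the same order, and were not called (adjusted p = 0.481, 0.0534 and 0.0834, edgeR). The rise of Tcf7 and Il7r was thus not particular to KO T cells. The median over the list was 0.21 in WT and 0.05 in KO T cells.

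**Figure D4:**
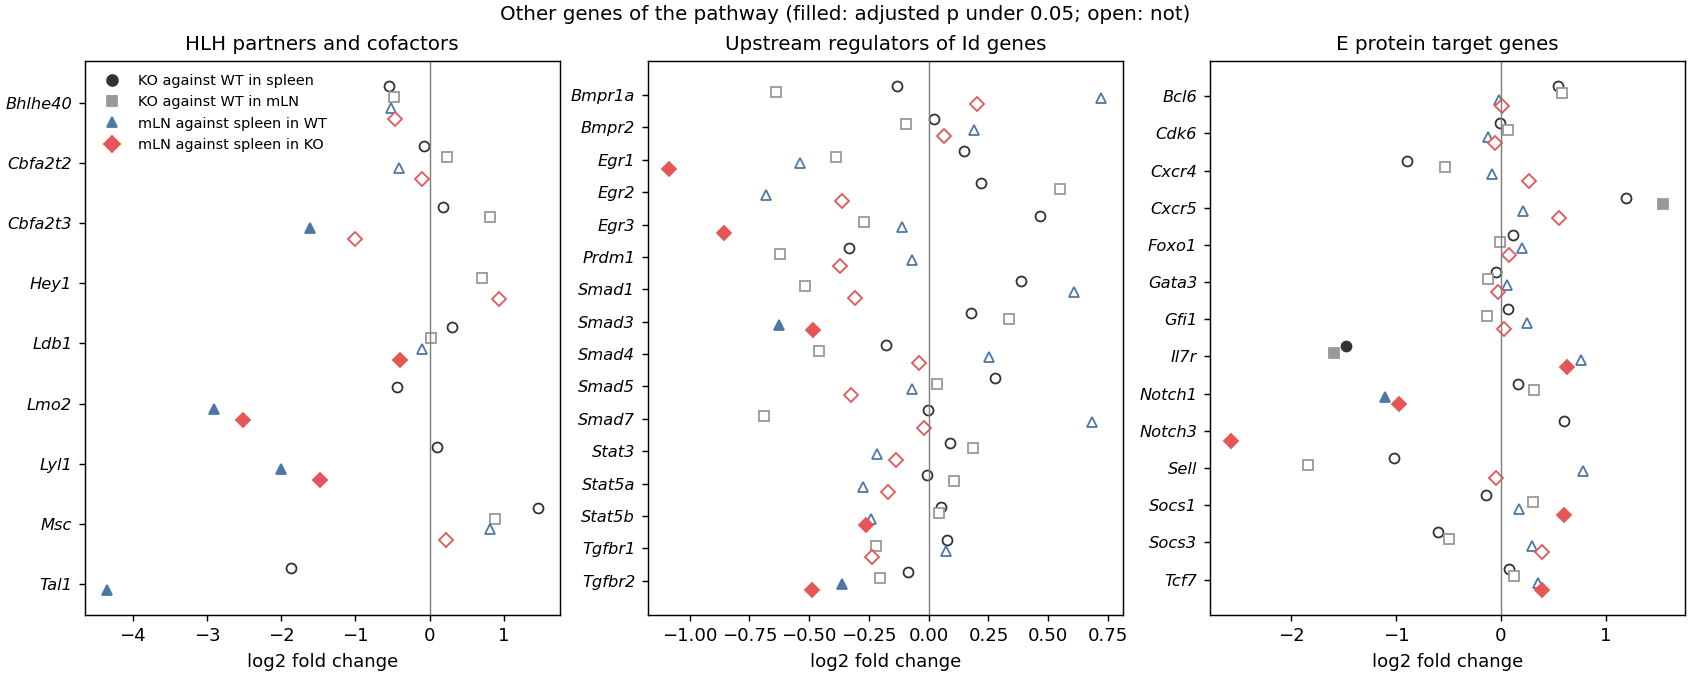
Log2 fold change (x axis, with its own scale in each panel) of every tested gene of the 3 lists in the 4 comparisons of pairs of groups; filled symbols passed the adjusted p limit and open ones did not. Filled symbols for the organ comparisons lie to the left of 0 among partners and upstream regulators, and Il7r and Cxcr5 carry the filled symbols for KO against WT. Among the partners, Lyl1, Lmo2 and Tal1 entered the organ comparisons through their spleen level.

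The genes whose pattern over the 15 samples was most like that of Id3, among 11936 protein-coding genes, were Ifi27l2a (r = 0.930), Capn3 (0.922), Actn1 (0.915), Gltp (0.914) and Cxcr5 (0.906), with Pearson's r of log2 CPM. With the group means removed, other genes led, namely Myo9a (0.891), Cdk5r1 (0.879), Plxnc1 (0.874), Zfp623 (0.861) and Pgap1 (0.842). For Id2 they were Tex2 (0.891), Tnfaip3 (0.891) and Prrc1 (0.887). For Tcf3 they were Sbf1 (0.990), Carmil2 (0.985) and Eif4g1 (0.984), for Tcf12 Rp2 (0.885), Aldh4a1 (0.883) and Lemd2 (0.878), and for the low Tcf4 Cmtm6 (0.820), Cenpo (0.815) and Slc22a4 (0.806). These are the highest of many values over few samples that share groups, and they are given without a test.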

How the data were processed

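CD4+ T cells were sorted from spleen and mLN of Rag2-/- recipients and sequenced as single-end reads (NEBNext low-input libraries). STAR 2.6.1a was used by the authors for alignment to GRCm38 with GENCODE M23, and they deposited raw counts per gene, without normalization. The submitters' processing notes also name bcl2fastq 2.19.1.403, RSEM and DESeq2 1.22.2. The strand behind the counts is not given in the sources used here. Reads on no gene were 58.4 to 63.4% of uniquely aligned reads and stayed out of library sizes. The counting precision of a low gene follows from about 9363940 to 11283439 reads on genes per sample. Reads carry no molecular identifiers.

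GENCODE M21, on the same build, gave symbols (55240 of 55421 genes), positions and lengths, and promoter sequences from RefSeq. Groups came from the labels. Levels are counts per 1000000 reads on genes. Differences were tested with edgeR 4.0.16 (R 4.3.3, limma 3.58.1), using filterByExpr, TMM, the quasi-likelihood test and Benjamini-Hochberg adjustment over all genes tested (limit 0.05), with the 2 groups compared in each fit and all 15 samples for the interaction. DESeq2 1.42.0, other normalizations and filters, a fit of all samples, the replicate number as a block, a log2 fold change limit of 1 and leaving out each sample were alternatives. The tests were checked on simulated counts. Other steps used Python 3.11.15. Correlations used log2 CPM with a prior count of 2.

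The members and gene lists were chosen with earlier results of these data known. Genes named are the members, Prkaa1, list genes called in a comparison of a pair of groups (at most 6 per list and comparison, by p) and the 3 genes most like each member (5 for Id3). The markers quoted one by one, and list genes given where they were not called, were picked with their values in view. The summed level of the B cell markers is not reported here.

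The study states that mice are the replicates, but the labels do not say that equal numbers mark the same mouse. Deviations from group means of same-numbered samples correlated with r of 0.243 to 0.291 in the organ comparison of WT T cells, where all 3 pairs passed 0.1 and the numbers were taken to pair the samples. They did not all pass it in KO T cells (0.0258 to 0.260) or between genotypes (-0.210 to 0.146 in spleen, -0.0531 to 0.0034 in mLN), where samples share only a number. The main tests used no pairing, also in WT T cells, and the replicate block was an alternative.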

Additional observations from a re-analysis of the deposited data

Results flagged for a closer look

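In groups of 4 samples, 1 sample was set apart when its gap to the next exceeded Dixon's critical share of the group's range, a limit that chance passes in about 1 of 20 groups, and 21 groups were examined. In all, 3 values passed it. Id3 stood at 30.3 CPM (302 counts) in WT spleen replicate 4, while the other WT spleen samples had 15.1 to 16.9 CPM. Tcf4 stood at 9.63 CPM (96 counts) in the same sample, with 4.36 to 5.13 CPM in the others. Id1 stood at 0.892 CPM (9 counts) in KO mLN replicate 3, the only sample of that group with a read. WT spleen replicate 4 also had the highest neutrophil marker sum of the 15 samples, 443 CPM, and the part of other cells in its values was not tested.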

How the results depend on the processing

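The calls of Tcf3 between the organs in both genotypes, and of Id3 and Id2 between the organs in KO T cells, were made at the adjusted p limit in every alternative with that limit, including each fit without 1 sample. The number of members called for KO against WT in spleen (1) was 2 without the filter on low counts, 0 with the replicate block and 0 to 1 with each sample left out. In mLN (2) it was 0 with the replicate block, 1 with the fold change limit and 0 to 2 with each sample left out. Between the organs, the fold change limit left 0 members in WT (2) and 0 in KO T cells (3), and leaving out each sample gave 1 to 2 and 3 to 4, and the interaction gave 0 to 0. The replicate block also changed Tcf12 in the KO organ comparison (adjusted p = 0.0440, edgeR; 0.0427 without the filter) and turned the log2 fold change of Tcf4 in the WT organ comparison to -0.073; it changed no other member call. Without 1 sample, values near 0 changed sign, with ranges for KO against WT of -0.21 to 0.22 (Tcf4, spleen), -0.096 to 0.0245 (Tcf3, mLN), -0.47 to 0.15 (Tcf4, mLN) and -0.0477 to 0.119 (Tcf12, mLN), for Tcf4 between the organs of -0.31 to 0.36 (WT) and -0.33 to 0.19 (KO), and for the interaction of -0.42 to 0.0934 (Id3) and -0.43 to 0.23 (Tcf4). The causes were not tested. With the longest transcript as length, the ratio of Id to E transcripts was 16.2 in WT spleen, 12.4 in KO spleen, 20.2 in WT mLN and 15.05 in KO mLN. Over all genes, KO against WT called 185 in spleen, beside 840 with DESeq2, 1422 without the filter, 85 in the fit of all 15 samples and 17 with the block, and 92 in mLN, beside 588, 913, 500 and 1. At the depth of these samples Id1 was too low to be tested.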
